A study of Mus musculus with 6 samples.

Results

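The T cell receptor complex is described here through 10 genes: the CD3 chains Cd3e, Cd3d, Cd3g and Cd247, the receptor constant regions Trac, Trbc1 and Trbc2, the coreceptors Cd4 and Cd8a, and the kinase Lck. They were chosen by symbol, and all 10 were found among the 30733 gene symbols listed in each library. RNA sequencing had been done on cells labelled as haematopoietic stem cells and sorted from the bone marrow of WT mice. All of these mice had received 5 Gy of total body irradiation, so no unirradiated group is part of the data. The sort split the cells by surface MHC class II, the molecule that shows peptides to CD4 T cells, and gave 3 libraries of MHCII-hi and 3 of MHCII-lo cells. The labels name no age, no time after irradiation, no sort gate and no link between a library and a mouse. A p-value therefore sets the difference between groups only against the spread between libraries, and that spread could be technical.

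The alpha and beta chains of the receptor bind a peptide held by an MHC molecule but have almost no tail inside the cell. The CD3 chains carry the tyrosine motifs (ITAMs) that pass the signal on. Lck, held at the tails of CD4 and CD8, phosphorylates those motifs and so recruits the kinase ZAP-70. CD4 binds MHC class II and CD8 binds class I. The complex as a whole is used as a defining marker of T cells, while CD4 is also found on some dendritic cells, and Cd247 and Lck are used by NK cells too.

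RNA of all 10 genes was listed above 0 in every library, and it stood higher in MHCII-hi than in MHCII-lo cells. The level is given as FPKM, fragments scaled to transcript length and to the library's total, so that genes can be compared per length. For 10 of 10 genes the lowest MHCII-hi library lay above the highest MHCII-lo library, where 21.3% of all 27171 genes above 0 showed the same. The ratio of group means ran from 2.84 for Trbc2 to 10.1 for Cd4, with a median of 3.43. A ratio of at least 3 was reached by 8 of the 10 genes, 3 of them with a mean under 1 FPKM, and by 3.73% of the 12110 genes whose mean was 1 FPKM or more. In bulk samples such as these, fewer cells of a type and less RNA per cell cannot be told apart.

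**Figure D1:**
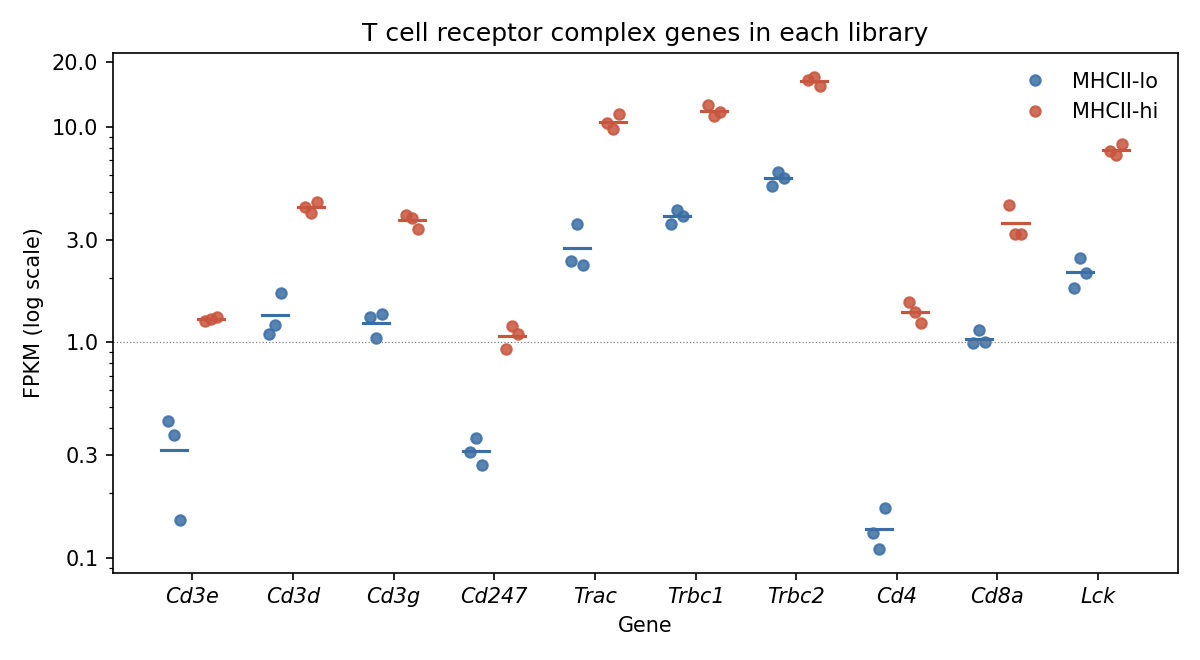
FPKM on a log axis of the 10 receptor complex genes in each library, with MHCII-lo in blue, MHCII-hi in red, a point for each library and a bar for the mean of 3. In every gene the MHCII-hi points lie above the MHCII-lo points; Cd3e, Cd247 and Cd4 lie below 1 FPKM (dotted line) in all MHCII-lo libraries.

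Each change was tested with limma on log2(FPKM + 1), over the 12110 genes with 1 FPKM or more on average, with Benjamini-Hochberg adjustment at 0.05. That average is over all 6 libraries, so a gene under 1 FPKM in MHCII-lo could enter the fit through MHCII-hi alone. Such a gene cannot come out lower, which tilts the counts of lists and segments further on toward higher. In that fit 25.5% of genes were higher and 33.1% lower in MHCII-hi. This balance depends on the scaling: 3084 genes were higher and 4009 lower as deposited (43.5% of calls higher), against 4934 and 2127 after scaling on genes other than immunoglobulins (69.9% of calls higher), and 7 of 7 receptor complex genes were higher either way. Of the receptor complex genes 7 were tested and 7 were higher, with a median log2 change of 1.36 against -0.04 over all genes tested. Cd3e, Cd247 and Cd4 had means of 0.803, 0.693 and 0.76 FPKM and so fell under the minimum. With no minimum, 10 of 10 were higher, where 14.6% of 27171 genes were, and the median log2 change was 1.16 against 0.01. On the log2(FPKM + 1) scale the change of a low gene is understated, and the plain ratios are given for that reason.

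The beta chain has alternative constant regions, and reads from the pair cannot always be told apart. Trbc1 (GRCm38, chromosome 6, 41538218 to 41539881, plus strand) and Trbc2 (chromosome 6, 41546730 to 41548352, plus strand) are annotated as separate receptor constant genes. Their annotated coding parts are 512 and 518 bases long and are identical at 488 of 512 aligned bases, or 95.3%. Of the stretches of 75 bases in the coding part of Trbc1, 53.2% also occur in that of Trbc2. The stretch of 100 bases with the most differences runs from base 383 to 482 of each coding part and holds 16 of the 24 differences. It is shown, 5′ to 3′, because reads from it can assign a transcript to a copy, and capitals mark the bases that differ.
Trbc1: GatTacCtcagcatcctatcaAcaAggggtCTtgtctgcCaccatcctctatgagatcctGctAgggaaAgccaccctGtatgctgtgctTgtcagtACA
Trbc2: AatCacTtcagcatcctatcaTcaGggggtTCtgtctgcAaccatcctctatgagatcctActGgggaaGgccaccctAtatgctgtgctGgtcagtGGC

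The receptor constant regions had the highest levels of the complex in FPKM. Trbc2 stood at 5.31, 6.2 and 5.83 FPKM in MHCII-lo and at 16.52, 17.15 and 15.55 FPKM in MHCII-hi. Every MHCII-hi library stood far above the highest MHCII-lo library. The ratio of means was 2.84, the smallest of the complex, and the log2 change was 1.36 (SE 0.06, limma adjusted p = 4.05e-06). Trbc1 stood at 3.56, 4.13 and 3.86 FPKM in MHCII-lo and at 12.7, 11.22 and 11.7 FPKM in MHCII-hi. The groups were again well apart, with a ratio of 3.08 (log2 change 1.41, SE 0.06, limma adjusted p = 4.25e-06). In each library Trbc2 stood above Trbc1. Given the shared sequence shown above, how the authors' counting split reads between the copies is uncertain.

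Trac, the constant region of the alpha chain (chromosome 14, 54220521 to 54224206, plus strand), followed. Its level was 2.39, 3.54 and 2.3 FPKM in MHCII-lo and 10.48, 9.79 and 11.44 FPKM in MHCII-hi. MHCII-lo replicate 2 was the highest of its group, yet far under every MHCII-hi library. The ratio of means was 3.85 and the log2 change was 1.64 (SE 0.13, limma adjusted p = 5.89e-05). This was the largest change among the receptor complex genes on the log2(FPKM + 1) scale only. By plain ratio the low genes Cd4 (10.1) and Cd3e (4.07) stood above Trac.

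The genes of 3 CD3 chains lie side by side on chromosome 9, within 40.1 kilobases. Cd3g (44969572 to 44980431, minus strand) and Cd3d (44981786 to 44987339, plus strand) are read away from each other, with annotated starts 1355 bases apart. Cd3e (44998740 to 45009627, minus strand) lies beyond Cd3d. Since these neighbours moved together, the windows at their starts are shown, taken from RefSeq on GRCm38.p6 as 250 bases before to 50 after the start and written 5′ to 3′ on the strand of the gene. Of the 10 genes 6 had such a window.

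The windows were searched on both strands for AGATAA (the core that GATA factors bind), TGTGGT (RUNX factors), CTTTGA (TCF and LEF factors), CAGGAAG (ETS factors), TATAAA (the TATA box) and CANNTG (the E box). Capitals mark every match except the E box.
Cd3g, chr9:44980382-44980681, minus strand: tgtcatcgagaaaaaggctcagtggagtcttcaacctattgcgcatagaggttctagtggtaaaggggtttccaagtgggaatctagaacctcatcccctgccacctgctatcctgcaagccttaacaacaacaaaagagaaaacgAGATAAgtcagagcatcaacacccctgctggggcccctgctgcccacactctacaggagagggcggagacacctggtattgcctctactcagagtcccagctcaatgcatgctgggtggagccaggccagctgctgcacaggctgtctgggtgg
Cd3d, chr9:44981536-44981835, plus strand: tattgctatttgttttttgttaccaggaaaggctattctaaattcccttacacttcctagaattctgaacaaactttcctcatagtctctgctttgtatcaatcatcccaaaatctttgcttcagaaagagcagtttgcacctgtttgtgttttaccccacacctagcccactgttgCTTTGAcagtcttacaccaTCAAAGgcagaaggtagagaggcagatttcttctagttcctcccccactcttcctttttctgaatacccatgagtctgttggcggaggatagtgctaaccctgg
Cd3e, chr9:45009562-45009861, minus strand: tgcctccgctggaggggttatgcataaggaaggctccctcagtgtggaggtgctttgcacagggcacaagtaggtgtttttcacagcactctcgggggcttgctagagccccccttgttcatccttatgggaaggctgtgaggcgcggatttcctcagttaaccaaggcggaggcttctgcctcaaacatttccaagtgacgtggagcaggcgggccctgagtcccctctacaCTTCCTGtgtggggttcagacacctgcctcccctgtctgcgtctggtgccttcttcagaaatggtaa

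The neighbouring windows did not share a match other than the E box. Cd3g held 1 AGATAA, which 11.2% of all 32851 windows of this length hold. Cd3d held 2 matches to CTTTGA, of which 1 is written as its reverse complement, and 16.0% of windows hold this motif. Cd3e held 1 CAGGAAG, written there as its reverse complement and present in 13.3% of windows. E boxes, present in 72.3% of windows, numbered 4 in Cd3g, 1 in Cd3d and 2 in Cd3e. TGTGGT, which 16.8% of windows hold, had no match in the windows shown, and the TATA box, which 13.6% hold, had none either. Of the windows not shown, that of Cd247 held 1 CTTTGA and 2 CAGGAAG. The upstream window of Lck held 1 TGTGGT and 2 CAGGAAG, and its other window 1 CAGGAAG. Cd8a held E boxes only. No match overlapped another. These matches describe the letters and were not tested against the values.

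Cd3d, the delta chain, stood at 1.1, 1.21 and 1.7 FPKM in MHCII-lo and at 4.25, 4.0 and 4.47 FPKM in MHCII-hi. Cd3g, the gamma chain, stood at 1.31, 1.05 and 1.35 FPKM in MHCII-lo and at 3.92, 3.78 and 3.36 FPKM in MHCII-hi. These partners, each of which pairs with an epsilon chain, had like levels in either group, and for both the groups did not overlap. The ratio was 3.17 for Cd3d (log2 change 1.17, SE 0.10, limma adjusted p = 1.02e-04) and 2.98 for Cd3g (log2 change 1.07, SE 0.08, limma adjusted p = 5.49e-05).

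Cd3e, the epsilon chain and a usual target of antibodies to CD3, was much lower than its neighbours. Its level was 0.43, 0.37 and 0.15 FPKM in MHCII-lo and 1.26, 1.29 and 1.32 FPKM in MHCII-hi. The MHCII-hi libraries were nearly equal, while MHCII-lo replicate 3 was well below the other MHCII-lo libraries. At the estimated depth, 0.15 FPKM in that library is about 5 fragments over a transcript of 1462 bases, so its low value rests on few reads. The ratio of means was 4.07, and the log2 change with no minimum was 0.80 (SE 0.10, limma adjusted p = 0.002). Leaving out any library in turn kept the gene past the threshold.

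Cd247 (chromosome 1, 165788681 to 165877277, plus strand) encodes the zeta chain, the CD3 chain with the most ITAMs. It was listed at 0.31, 0.36 and 0.27 FPKM in MHCII-lo and at 0.93, 1.19 and 1.1 FPKM in MHCII-hi, the lowest level of the complex in MHCII-hi. The groups did not overlap, and the ratio of 3.43 lay at the median of the complex (log2 change with no minimum 0.66, SE 0.08, limma adjusted p = 0.00154). In MHCII-lo replicate 3 the value of Cd247 corresponds to an estimated 9 to 20 fragments, depending on the transcript length taken.

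Lck (chromosome 4, 129548344 to 129573641, minus strand), the kinase that starts receptor signalling, stood at 1.79, 2.46 and 2.1 FPKM in MHCII-lo. In MHCII-hi it stood at 7.73, 7.39 and 8.37 FPKM, each at least 3.0 times the highest MHCII-lo library. The ratio of means was 3.7 and the log2 change was 1.51 (SE 0.09, limma adjusted p = 1.49e-05). RefSeq lists 2 start sites for Lck, 15269 bases apart, and a value per gene does not separate transcripts by their start.

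**Figure D2:**
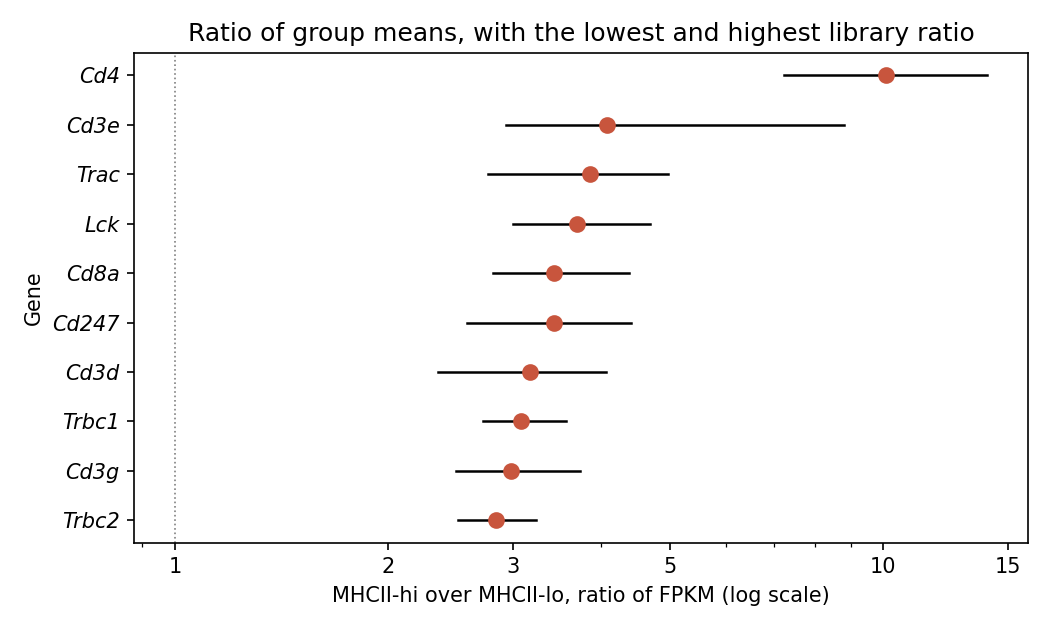
Ratio of MHCII-hi to MHCII-lo FPKM on a log axis for each receptor complex gene; points are ratios of group means, and lines run from the lowest MHCII-hi over the highest MHCII-lo library to the reverse. Of the 10 points 9 lie between 2.84 and 4.07, Cd4 lies at 10.1, and no line reaches 1 (dotted line).

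The coreceptors had the values that follow. Cd8a (chromosome 6, 71373427 to 71379173, plus strand), the alpha chain of CD8, stood at 0.99, 1.14 and 1.0 FPKM in MHCII-lo and at 4.33, 3.2 and 3.2 FPKM in MHCII-hi. MHCII-hi replicate 1 was the highest, and the groups were apart with a ratio of 3.43 (log2 change 1.15, SE 0.11, limma adjusted p = 1.32e-04). Cd4 (chromosome 6, 124864692 to 124888221, minus strand) was listed at 0.13, 0.11 and 0.17 FPKM in MHCII-lo, the lowest level of the complex there. It rose to 1.54, 1.38 and 1.23 FPKM in MHCII-hi, each at least 7.24 times the highest MHCII-lo library. Its ratio of 10.1 was the largest of the complex (log2 change with no minimum 1.07, SE 0.08, limma adjusted p = 2.00e-04). In MHCII-lo replicate 2 the value of Cd4 corresponds to about 8 fragments, so the size of the ratio is imprecise.

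Ordered by level, the complex kept nearly 1 sequence in both groups. In MHCII-hi the order was Trbc2, Trbc1, Trac, Lck, Cd3d, Cd3g, Cd8a, Cd4, Cd3e and Cd247. Of the 9 neighbouring pairs in it, 3 overlapped between libraries, namely Trbc1 with Trac, Cd3g with Cd8a, and Cd4 with Cd3e. In MHCII-lo the first 7 places were the same, followed by Cd3e, Cd247 and Cd4. There 4 of 9 neighbouring pairs overlapped: Trac with Lck, Cd3d with Cd3g, Cd3g with Cd8a, and Cd3e with Cd247.

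Whether the members moved by different amounts was asked with the difference of log2(FPKM + 1) between each gene and Cd3e, in 9 pairs. No pair passed an exact two-sided permutation test, whose smallest p with 3 libraries against 3 is 0.1. The smallest adjusted p was 0.18 (exact permutation, 9 pairs), for Trac, Trbc1, Trbc2, Cd8a and Lck, with differences of 0.84, 0.6, 0.56, 0.35 and 0.7. Adding 1 shrinks the change of low genes such as Cd3e. As plain log2 ratios without a pseudocount, chosen after the values were seen, the same 5 genes had differences of the other sign, -0.19, -0.54, -0.66, -0.4 and -0.27. The plain ratio of Cd4 to Cd3e was 0.302, 0.297 and 1.13 in MHCII-lo and 1.22, 1.07 and 0.932 in MHCII-hi. MHCII-lo replicate 3, the library with about 5 fragments of Cd3e, lay within the MHCII-hi range, and the plain difference of 1.19 had an exact permutation p = 0.3.

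Another 5 ratios, chosen after the values were seen, compared genes that work in pairs. Cd8a stood at 7.62, 10.4 and 5.88 times Cd4 in MHCII-lo and at 2.81, 2.32 and 2.6 times Cd4 in MHCII-hi. The ratio was lower in every MHCII-hi library than in any MHCII-lo library, with means of 2.58 ± 0.247 against 7.95 ± 2.26 (SD, n = 3). The exact permutation p was 0.1, the smallest possible, and 0.25 adjusted over the 5 pairs. On the log2(FPKM + 1) scale the difference between Cd8a and Cd4 was 0.09 with an exact permutation p = 0.4, in place of -1.59 on the plain scale.

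Cd8b1, the beta chain that joins Cd8a on conventional CD8 T cells, was higher in MHCII-hi. It stood at 1.95, 1.55 and 1.62 FPKM in MHCII-lo and at 3.07, 3.48 and 2.78 FPKM in MHCII-hi (ratio 1.82, log2 change 0.60, limma adjusted p = 0.00133). The ratio of Cd8b1 to Cd8a was 1.97, 1.36 and 1.62 in MHCII-lo and 0.709, 1.09 and 0.869 in MHCII-hi, with no overlap. Its plain log2 difference was -0.9 (exact permutation p = 0.1, adjusted p = 0.25 over 5 pairs). Some dendritic cells carry Cd8a without Cd8b1, and markers of dendritic cells are given further on; their part in this ratio was not tested.

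The ratio of Trbc2 to Trbc1 was 1.5 ± 0.0094 in MHCII-lo and 1.39 ± 0.124 in MHCII-hi (SD, n = 3) and overlapped between groups. That of Cd3g to Cd3d was 0.951 ± 0.211 and 0.873 ± 0.106, and that of Zap70 to Lck was 0.244 ± 0.0415 and 0.281 ± 0.0579, also with overlap. Their exact permutation p-values on the plain scale were 0.4, 0.8 and 0.5. For Zap70 to Lck the plain difference was 0.2 and that on the log2(FPKM + 1) scale -0.43 (exact permutation p = 0.1), so its sign turned with the scale. This test cannot go below 0.1 with 3 libraries against 3, so it could not have passed 0.05 for any of these ratios.

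**Figure D3:**
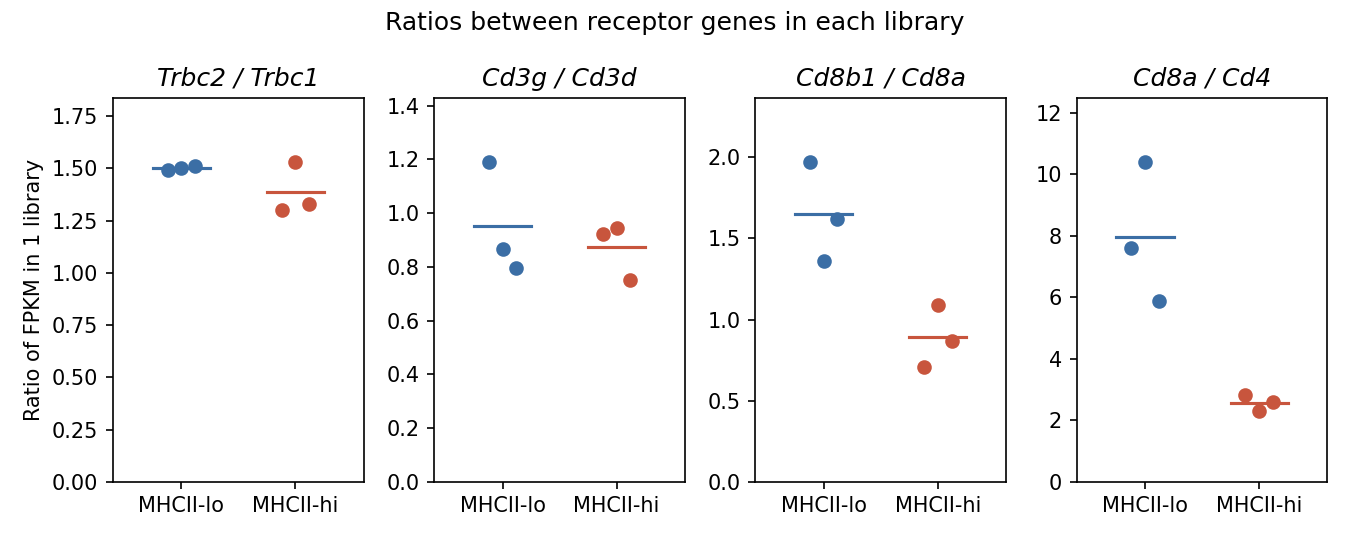
Ratio of FPKM between 2 genes within 1 library for Trbc2 over Trbc1, Cd3g over Cd3d, Cd8b1 over Cd8a and Cd8a over Cd4, each on its own axis from 0, with points for libraries and a bar for the mean. The groups overlap in the first 2 panels and are apart in the last 2, where MHCII-hi is lower.

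The receptor is built from variable, diversity and joining segments joined to the constant regions, and 221 such segments were listed in the tables. In MHCII-lo 62, 68 and 64 of them were above 0, and in MHCII-hi 150, 121 and 134. Of all 30733 symbols 67.0%, 67.3% and 67.9% were above 0 in MHCII-lo and 75.1%, 70.8% and 71.8% in MHCII-hi. Among the 189 segments above 0 in any library, 14 had a partner with the same value in all 6 libraries, and whether such partners share reads was not tested. Counting such partners once gave 61, 68 and 64 segments in MHCII-lo and 145, 117 and 129 in MHCII-hi. MHCII-hi replicate 1 is the deepest library, at an estimated 3.26e+07 fragments, and has the highest count. MHCII-hi replicate 2 is the shallowest of the 6, at 2.03e+07, and the MHCII-lo libraries had 2.24e+07 to 2.46e+07 fragments. The part of depth in these counts was not tested. The summed FPKM of all segments was 29.2 to 36.0 in MHCII-lo and 110.0 to 118.0 in MHCII-hi, a ratio of 3.4. That of the 10 receptor complex genes was 17.3 to 20.6 against 60.4 to 63.7, a ratio of 3.28.

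By chain, most segments belonged to the alpha locus, with 27 to 31 of 161 above 0 in MHCII-lo and 72 to 97 in MHCII-hi. Of 42 beta segments 27 to 31 were above 0 in MHCII-lo and 36 to 38 in MHCII-hi. Beta segments were fewer but higher, with sums of 17.9 to 25.2 FPKM in MHCII-lo and 69.1 to 73.9 FPKM in MHCII-hi. Of 7 delta segments 2 to 3 and 5 to 6 were above 0, and of 11 gamma segments 4 to 7 and 6 to 9.

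Only 19 segments had a mean of at least 1 FPKM, of which 13 were higher, 0 lower and 6 did not pass. Over all genes tested 25.5% were higher. Some segments, such as Trbd1 at 0.257 and Trbv29 at 0.31 FPKM in MHCII-lo, passed the minimum only through MHCII-hi and could not come out lower. With no minimum 38 of 189 were higher, 0 lower and 151 did not pass, beside 14.6% of all genes higher. The variable segment Trbv13-2, the highest in MHCII-hi and chosen after its values were seen, stood at 1.83, 1.32 and 2.43 FPKM in MHCII-lo and at 5.86, 8.71 and 6.09 FPKM in MHCII-hi. It is given as a description, with no test, since its values chose it. Members of a segment family resemble each other in sequence, which makes the value of each one uncertain.

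**Figure D4:**
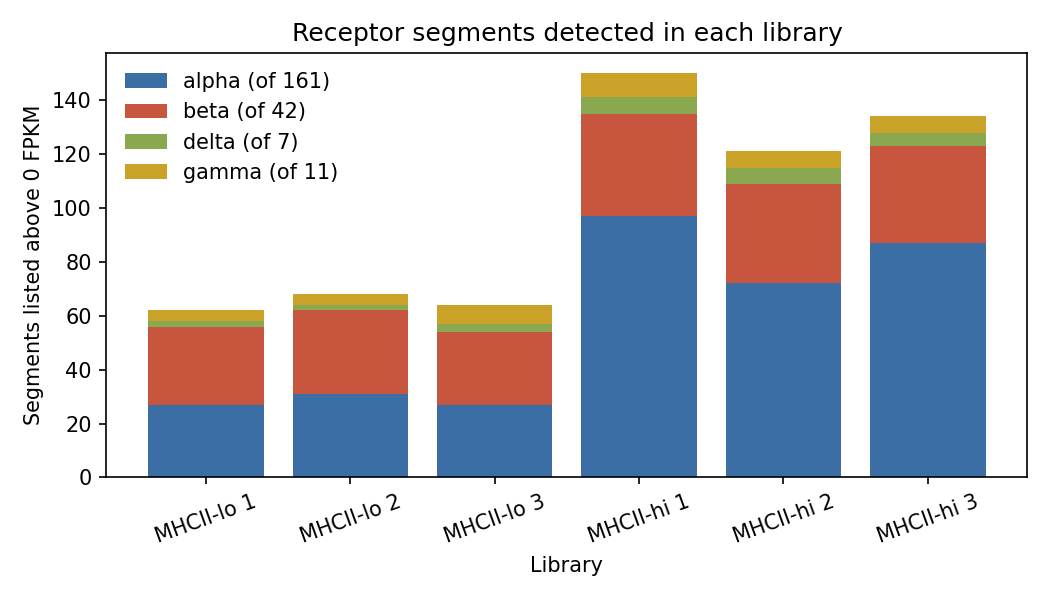
Number of T cell receptor segments listed above 0 FPKM in each library, stacked by chain (alpha of 161, beta of 42, delta of 7, gamma of 11). MHCII-lo libraries reach 62 to 68 segments and MHCII-hi libraries 121 to 150.

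The next step of the pathway was read from 24 genes of proximal receptor signalling, Cd8b1 among them. Of these 20 were tested, 16 were higher, 1 was lower and 3 did not pass, with a median log2 change of 0.87. Over all genes tested 25.5% were higher and 33.1% lower. Fyn, a kinase related to Lck, had a ratio of 3.18 and the adaptor Sh2d2a 7.96. Zap70, the kinase that binds phosphorylated ITAMs, stood at 0.513 ± 0.10 against 2.21 ± 0.493 FPKM (SD, n = 3, ratio 4.3, limma adjusted p = 4.77e-04). Its adaptor Lat had a ratio of 2.38.

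Genes that did not pass included some that many blood cells use. Vav1 stood at 52.73, 52.23 and 53.9 FPKM against 50.67, 51.42 and 47.9 FPKM. Ptprc (CD45) stood at 37.3 ± 0.396 against 35.7 ± 0.211 FPKM and Ubash3a at 3.17 ± 0.156 against 2.86 ± 0.0757 FPKM (SD, n = 3). These 3 did not pass (limma adjusted p = 0.0707, 0.061 and 0.113), though for each every MHCII-hi library lay below every MHCII-lo library. The adaptor Lcp2 passed with a small rise of 0.12 (limma adjusted p = 0.0193). The scaling that leaves out immunoglobulin genes moves changes upward, by 0.15 at the median. It gave 18 genes of this list higher in place of 16, while leaving out MHCII-lo replicate 1 or 2 gave 15. The gene that fell was Pag1, an adaptor that holds Csk at the membrane, at 12.6 ± 0.256 against 7.95 ± 0.321 FPKM (SD, n = 3; log2 change -0.60, limma adjusted p = 2.91e-05). With quantile normalization 3 genes of this list were lower in place of 1.

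Other T cell surface molecules rose with the receptor. Of 16 genes 5 were below the minimum, and 11 of 11 tested were higher, beside 25.5% of all genes tested. Their median log2 change was 1.29. Some, such as Ctla4 at 0.52 and Cd28 at 0.677 FPKM in MHCII-lo, passed the minimum only through MHCII-hi. With no minimum 16 of 16 were higher, beside 14.6% of all genes. The inhibitory receptor Ctla4 had the smallest p and a ratio of 12.4, followed by the costimulatory receptor Cd28 at 7.48, Thy1 at 2.27 and the interleukin-7 receptor Il7r at 3.46. Cd2, Cd5 and Cd6, adhesion and signalling partners of the receptor, had ratios of 3.76, 3.18 and 2.64. All 16 were apart between the groups, beside 21.3% of all genes above 0 that were apart and higher.

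Among 14 T cell transcription factors 8 were tested, 7 were higher and 1 was lower, beside 25.5% and 33.1% of all genes tested. Eomes and Id3 were among those that passed the minimum only through MHCII-hi. Ets1 stood at 8.49 ± 0.297 against 13.6 ± 0.536 FPKM, Tcf7 at 3.38 ± 0.27 against 7.0 ± 0.316 FPKM, Eomes at 0.277 ± 0.0987 against 1.8 ± 0.115 FPKM and Id3 at 0.64 ± 0.288 against 4.11 ± 0.304 FPKM (SD, n = 3). Zbtb7b, which directs CD4 lineage choice, was lower at 10.6 against 12.2 FPKM (log2 change -0.19, limma adjusted p = 0.00531), but scaling on the genes other than immunoglobulins left no gene of this list lower. The commitment factor Bcl11b lay below the minimum, at 0.14, 0.21 and 0.2 FPKM against 0.7, 0.64 and 0.63 FPKM. Its libraries were apart, with a ratio of 3.58.

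Of the gamma and delta constant regions 4 symbols were in the tables and were low in both groups. Trgc2 had a ratio of 5.77 and was higher (limma adjusted p = 4.54e-04), while Trgc1 stood at 1.19, 0.59 and 1.29 FPKM against 2.23, 1.1 and 1.94 FPKM, overlapped and did not pass (limma adjusted p = 0.106). The list had 2 genes higher in place of 1 without MHCII-hi replicate 2, with the replicate number as a block, and with scaling that leaves out immunoglobulin genes. Trdc, the delta constant region, stood at 0.307 ± 0.00577 against 1.02 ± 0.187 FPKM (SD, n = 3). For immature thymocytes 7 of 8 genes were listed, and Ptcra was not. Of these, 3 of 3 tested were higher, beside 25.5% of all genes tested. Dntt led at 1.38 against 12.1 FPKM, while Notch1 and Cd1d1 had ratios of 1.2 and 1.45. Rag1 was listed at 0 in every MHCII-lo library and at 0.76, 0.64 and 0.45 FPKM in MHCII-hi, and Notch3 and Arpp21 had means under 0.1 FPKM in both groups. Dntt and Rag1 are shared with B cell precursors.

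Markers of other cell types moved in the same comparison, and their part in the receptor complex values was not tested. Of 13 NK cell genes 12 were higher, 0 lower and 1 did not pass, beside 25.5% of all genes tested higher. Prf1 at 0.35 and Eomes at 0.277 FPKM in MHCII-lo were among those that passed the minimum only through MHCII-hi. Such genes could not come out lower. The median log2 change was 1.14, and summed levels were 164 to 173 FPKM in MHCII-lo and 214 to 222 FPKM in MHCII-hi. Nkg7 made up most of that sum and stood at 149.2, 154.29 and 146.43 FPKM against 149.23, 144.34 and 150.92 FPKM. The NK receptors Ncr1 and Klrb1c had ratios of 3.08 and 4.51, within the range of the receptor complex, and Il2rb, Klrk1, Gzma and Gzmb had ratios of 5.23, 4.47, 3.43 and 2.57. Of 9 genes of group 2 innate lymphoid cells (ILC2) 7 were below the minimum and 2 of 2 tested were higher, Il17rb and Il1rl1. With no minimum 5 of the 9 were higher and 4 did not pass, beside 14.6% of all genes higher. The summed level of the 9 genes was 5.54 to 5.78 against 13.3 to 14.2 FPKM, with Il5 and Il9r under 0.1 FPKM in both groups.

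Genes of dendritic cells, subsets of which carry CD4 or CD8 alpha, rose in 6 of 6 tested, with 5 below the minimum and a median log2 change of 1.56. Some, such as Cd209a at 0.6 against 16.4 FPKM, passed the minimum only through MHCII-hi. With no minimum 11 of these 11 genes were higher, beside 14.6% of all genes. Their summed level was 28.7 to 29.2 FPKM in MHCII-lo and 67.0 to 76.2 FPKM in MHCII-hi. Cd209a had a ratio of 27.3, Itgax 7.1, Siglech 6.89 and Clec10a 3.07, and over the 11 genes the ratio ran from 1.39 for Bst2 to 27.3. None of the 11 genes had a mean under 0.1 FPKM in both groups.

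Of 10 B cell genes 7 were below the minimum and 3 of 3 tested were higher, with summed levels of 7.24 to 8.39 against 52.6 to 55.9 FPKM and Cr2 under 0.1 FPKM in both groups. Cd79b, at 7.47 against 19.4 FPKM, made up most of the MHCII-lo sum. All 8 plasma cell genes were higher, led by Jchain at 14.2 against 1340.0 FPKM, Irf4, Sdc1 and Derl3, with sums of 79.5 to 82.8 against 1500 to 1510 FPKM. Irf4, at 0.55 against 19.5 FPKM, and the B cell gene Cd79a, at 0.28 against 24.3 FPKM, were among those that passed the minimum only through MHCII-hi. Over all genes tested 25.5% were higher.

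The label of stem cell was checked on 10 stem cell genes and 10 neutrophil genes. Mecom, Fgd5, Procr and Slamf1 reached means of 0.217, 0.137, 0.497 and 0.42 FPKM at most, all in MHCII-hi, and Hoxb5 was under 0.1 FPKM in both groups. Of 4 stem cell genes tested 3 were higher, Ly6a and Kit among them, and Hlf did not pass. With no minimum 6 of 10 were higher and 4 did not pass, beside 14.6% of all genes higher. All 10 neutrophil genes were lower, with summed levels of 37600 to 38300 FPKM in MHCII-lo and 15500 to 15900 FPKM in MHCII-hi, led by Mmp8, Lcn2, S100a9 and S100a8. Ly6a, at 2.5 against 35.5 FPKM, made up most of the rise in the stem cell sum from 18.5 to 18.9 up to 53.7 to 59.6 FPKM.

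**Figure D5:**
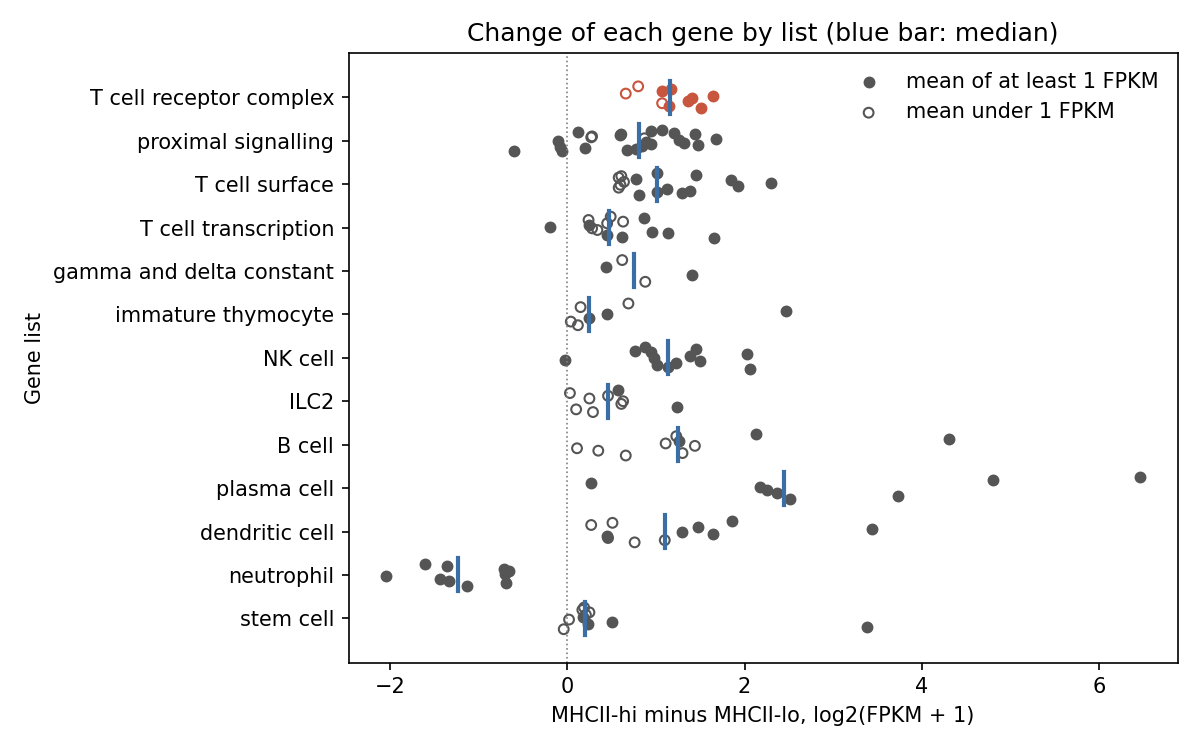
Difference of mean log2(FPKM + 1), MHCII-hi minus MHCII-lo, for each gene by list, with filled points for genes averaging 1 FPKM or more, open points for lower genes and a blue bar for the median of all points in the list. The receptor complex (red) spans 0.66 to 1.64 with a median of 1.16. Medians of the B cell (1.24), NK cell (1.14), dendritic cell (1.1) and T cell surface (1.01) lists lie near it. The neutrophil genes all lie below 0.

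The genes whose pattern over the 6 libraries was nearest to the mean of Cd3e, Cd3d, Cd3g and Trbc2 were sought by Euclidean distance of centred log2(FPKM + 1). They were Rgs1, Ifi206, Dusp10, Ppp1r15a, Cep85, Atf3, Ahnak, Klf10, Thbs1 and Chd3, with distances of 0.059 to 0.116. Their levels ranged widely, from 0.377 FPKM for Ifi206 to 50.5 and 56.5 FPKM for Atf3 and Thbs1 in MHCII-lo. None of the 10 was in a list used here. The 7 tested receptor complex genes lay at 0.176 (Cd3g) to 0.779 (Trac), farther than these. With 2 groups a distance over 6 libraries mostly reads the size of the difference between them.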

How the data were processed

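The authors deposited 1 table for each of 6 libraries with a value for each of 30803 rows. The headers name no unit, and the deposited values were read as FPKM (not whole, summing to 332289 to 383600). Libraries came from a stranded mRNA kit, per the labels' protocols. Per the submitters' processing notes the tools were fastp, HISAT2 and StringTie and the build GRCm38 (mm10); their versions and settings, and the annotation, were not given in the sources used here. Being scaled to the total of a library, an FPKM falls where a few genes take up more of it.

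Of rows sharing a symbol the highest was kept (70 dropped). limma 3.58.1 (R 4.3.3) with an intensity trend was run on log2(FPKM + 1) for genes averaging 1 FPKM or more, as a two-sided test adjusted by Benjamini and Hochberg's method over every gene tested, and was tested on simulated data. No list was tested as a whole.

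Depth was estimated from the value of 1 fragment in genes with 1 exon of 300 to 1000 bases, at 2.03e+07 to 3.26e+07 fragments. Squared differences between replicates were 2.65 to 3.03 times counting noise. Coordinates and lengths are from GENCODE M21 (GRCm38), windows at starts from RefSeq.

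Members and lists were chosen with earlier results of these data known. Named were all members, up to 4 genes of each list with the smallest p, cell type genes under 0.1 FPKM in both groups and the 10 nearest in pattern; any further gene was picked with its values in view. Some genes that this rule names are not reported here. Alternatives were a pseudocount of 0.1, other minimums, a replicate block, other scalings and variance models, and leaving out each library.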

Additional observations from a re-analysis of the deposited data

How the results depend on the processing

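The 10 receptor complex genes kept their direction and stayed past the threshold in all 130 values recomputed under the alternatives in limma. Over all genes 3084 were higher and 4009 lower, so 43.5% of called genes were higher. Scaling without immunoglobulin genes shifted the median change by 0.15 and gave 4934 higher and 2127 lower (69.9% higher). A minimum of 5 FPKM gave 1792 higher and left 3 receptor complex genes to test, all 3 higher. Leaving out a library gave 2760 to 2893 higher and 3589 to 3688 lower.

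Relative to Cd3e, several differences turned with the pseudocount, which acts most on low genes. With 0.1 they were -0.19 for Cd3d, -0.3 for Cd3g, -0.21 for Trbc1, -0.32 for Trbc2 and -0.14 for Cd8a. As plain ratios they were -0.47 for Cd3d, -0.58 for Cd3g, -0.19 for Trac, -0.54 for Trbc1, -0.66 for Trbc2, -0.4 for Cd8a and -0.27 for Lck.

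With the replicate number as a block, 2856 genes were higher and 3782 lower, and 7 of 7 receptor complex genes tested were higher. Deviations of same-numbered libraries correlated at -0.092, -0.004 and -0.035. With 3 libraries in a group such values cannot tell whether same-numbered libraries share a mouse or a batch. Depth limits the lowest values. In the lowest library of each gene the estimate was about 5 fragments for Cd3e and 8 for Cd4. Depending on the transcript length taken, it was 9 to 20 for Cd247, 7 to 40 for Cd3d, 10 to 26 for Cd3g and 15 to 88 for Lck.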
